A study of Arabidopsis thaliana with 6 samples.

Results

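The genes described here were 61 Arabidopsis thaliana genes whose transcripts were far brighter in the leaves of pho3 plants than of wild-type plants on the 4 microarrays that differ most. They were chosen by their signals: the lower of pho3 replicates 1 and 2 was at least 100 and at least 4 times the higher of wild-type replicates 2 and 3. These 4 arrays are called the end arrays below. The signals of the other 2, pho3 replicate 3 and the array labelled wild-type replicate 1, were not used in these limits. Of 22746 probe sets without controls, 194 (0.853%) passed both limits. Of these, 118 had no single gene in the annotation (7 had several genes and 111 were unlisted) and 76 had 1 gene. Those 76 were 0.562% of the 13513 probe sets with 1 gene. Another 15 of the 76, for genes of anthocyanin, starch, sugar transport and other named groups, were left out by name, which left 61 probe sets for 61 different genes. The choice fixes the contrast between the end arrays, so their signals on the end arrays are given as a description.

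All RNA came from rosette leaves at growth stage 6.0, hybridised to Affymetrix ATH1 arrays with 3 arrays per line. The pho3 line comes from the Feldmann collection of T-DNA insertion lines and is in the Ws-2 accession, which was also the wild type. No other allele or agent is named in the labels, and both lines grew at 23 °C in days of 16 h light followed by 8 h darkness, first for 10 days on plates containing 1% sucrose and later in compost. The labels do not say how many plants were pooled for an array or whether replicates came from separate plants.

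As background, pho3 is known as a mutant of SUC2, the transporter that loads sucrose into the phloem. Leaves that cannot export sucrose accumulate sugars, starch and anthocyanin. Soluble sugar also acts as a signal in leaves, where it is known to act together with salicylic acid, abscisic acid and senescence pathways on many genes, among them genes for pathogenesis-related proteins. SUC2 has no named probe set here, so its transcript was not read, and the mutation was not checked. Of the 11 leaf mesophyll markers listed, 5 had a named probe set (among them RCA, LHCB4.1 and PRK), with signals between 955 and 3694 on the 6 arrays. Their summed signal was 8775 and 9083 on pho3 replicates 1 and 2, 12140 on pho3 replicate 3, 10832 on the array labelled wild-type replicate 1, and 13957 and 13371 on wild-type replicates 2 and 3. These photosynthesis genes thus stood in the opposite order to the 61 genes on the 6 arrays, and their part in the results was not tested. The guard cell marker FMA read 40.9 to 63.7 and the root marker EXPA7 read 6.06 to 38.0. The phloem, xylem, flower and seed markers listed had 0 named probe sets.

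The arrays did not group by label. The spread of log2 signal differences over 13983 probe sets (scaled median absolute deviation) was 0.27 between pho3 replicate 3 and the array labelled wild-type replicate 1. For the latter array the spread was 0.31 against each pho3 end array, and 0.48 and 0.47 against wild-type replicates 2 and 3. For pho3 replicate 3 it was 0.43 and 0.44 against the pho3 end arrays, and 0.35 and 0.37 against wild-type replicates 2 and 3. Within the pairs of end arrays it was 0.24 for pho3 and 0.30 for wild type. Over the whole array, each unused array thus lay closer to the end arrays of the other line than to those of its own label. Signals are linear intensities in arbitrary units with the same trimmed mean, 100.0, on every array, and the 40th percentile of an array lay between 26.2 and 28.4. In limma's test over all 6 arrays, 0 of the 13983 probe sets passed an adjusted p of 0.05 in either direction (0% called). With p-values left unadjusted, 807 probe sets were under 0.05 with a higher mean in pho3 and 678 with a lower one. Without the array labelled wild-type replicate 1, 644 probe sets (4.61%) were called higher and 117 (0.837%) lower. Calls for the 61 genes are not given, since that fit holds all 4 end arrays. In bulk leaf RNA, fewer cells of a type and less RNA per cell cannot be told apart.

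The unused arrays are the only contrast between the lines whose signals the limits did not use, with 1 array on each side and therefore no test. Which arrays were set aside was itself decided with these data known, so the order on them is given as a description. All 61 genes read higher on the array labelled wild-type replicate 1 than on pho3 replicate 3, the opposite order to the end arrays. Over all probe sets with 1 gene the share was 51.5%, and it was 49.2% among the 3534 with a signal of at least 100 on either array. The log2 difference, pho3 replicate 3 minus the array labelled wild-type replicate 1, had a median of -0.57 over the 61 genes and ranged from -1.28 to -0.25. Its median over all probe sets with 1 gene was -0.01. At least 1.5-fold higher on the array labelled wild-type replicate 1 were 29 of the 61, against 11.5% of all probe sets with 1 gene and 2.77% of those with at least 100 on either array. At least 2-fold higher there were 4 genes, against 5.83% and 0.311%. Higher on pho3 replicate 3 by 1.5-fold were 0 of the 61 (10.6% of all probe sets with 1 gene, 2.6% of the brighter ones), and by 2-fold likewise 0 (5.49% and 0.198%). The 15 genes left out by name were likewise all higher on the array labelled wild-type replicate 1, as were 117 of the 118 probe sets without a single gene. What made the array labelled wild-type replicate 1 read above pho3 replicate 3 was not tested.

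**Figure D1:**
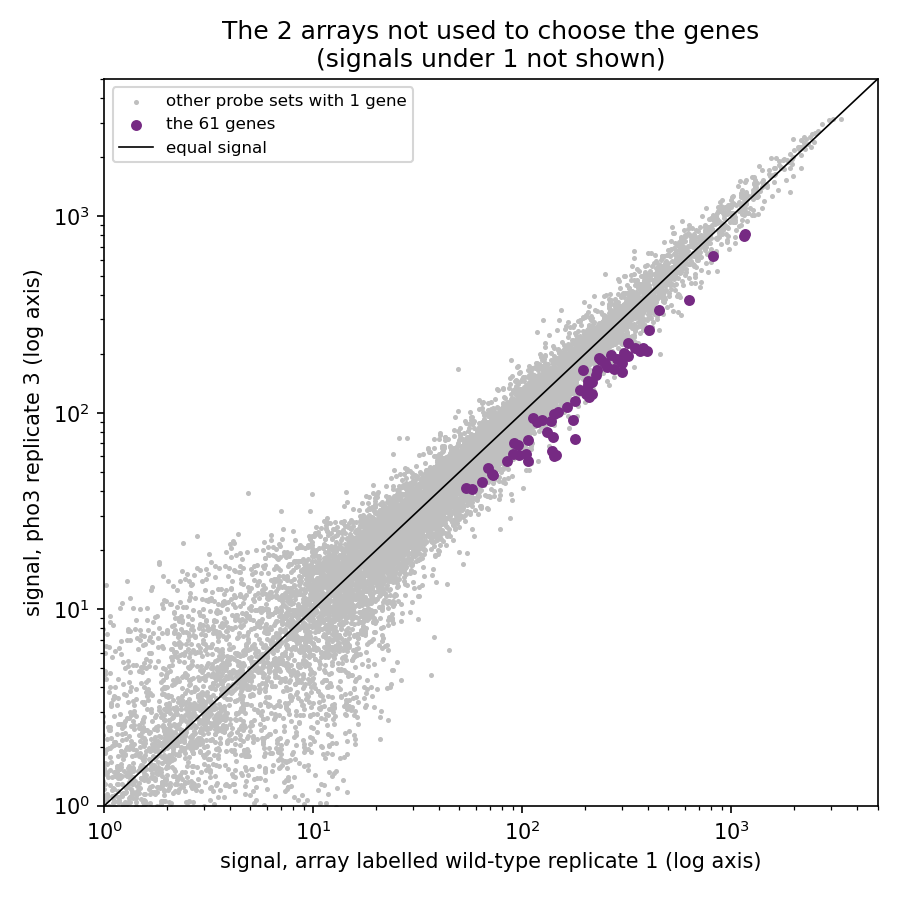
Signal on pho3 replicate 3 (vertical) against signal on the array labelled wild-type replicate 1 (horizontal), in arbitrary units on log axes, with each of the 61 genes as a large point and every other probe set with 1 gene as a small grey point. All 61 genes lie under the line of equal signal, while the grey points spread to both sides of it.

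Every one of the 61 genes read higher on each unused array than on both wild-type end arrays, and 60 of the 61 were at least 2 times both of them on both unused arrays. The exception was AT1G66880, which read 115 on pho3 replicate 3 against 70.1 and 43.7. A signal of at least 100 was reached by 35 of the 61 on pho3 replicate 3 and by 50 on the array labelled wild-type replicate 1, where 24.3% and 24.8% of all probe sets with 1 gene reached it. By the choice, all 61 had at least 100 on both pho3 end arrays, so those shares are given only for scale. As a percentage of the geometric mean of the pho3 end arrays, the median gene read 48.1% on pho3 replicate 3 and 75.6% on the array labelled wild-type replicate 1. For 51 of the 61 the order of signals was both pho3 ends, then the array labelled wild-type replicate 1, then pho3 replicate 3, then both wild-type ends. The choice had set the wild-type ends low and the pho3 ends high, so these counts against the ends are a description. Their shares over all probe sets were not taken. Over all probe sets with 1 gene, the ratio to the geometric mean of the wild-type ends had an upper quartile of 1.2 on pho3 replicate 3. On the array labelled wild-type replicate 1 it was 1.26. With the mean log2 signal of the wild-type ends set to 0 and that of the pho3 ends to 1, the median position was 0.71 for pho3 replicate 3 and 0.88 for the array labelled wild-type replicate 1. On pho3 replicate 3, AT1G66880 at 0.45 and AT5G52740 at 0.48 were nearer to the wild-type ends on this scale. The other genes were nearer to the pho3 ends. With all signals under the 40th percentile of their array raised to it, the medians were 0.64 and 0.86. Positions on pho3 replicate 3 then ran from 0.27 to 1.06 with a lower quartile of 0.54. More genes were then nearer to the wild-type ends, among them AT1G57630 at 0.33 and AT2G15042 at 0.31. By label, the 3 pho3 arrays all read above the 3 wild-type arrays for 0 of the 61 genes, where 5.06% of all probe sets with 1 gene showed such a gap.

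**Figure D2:**
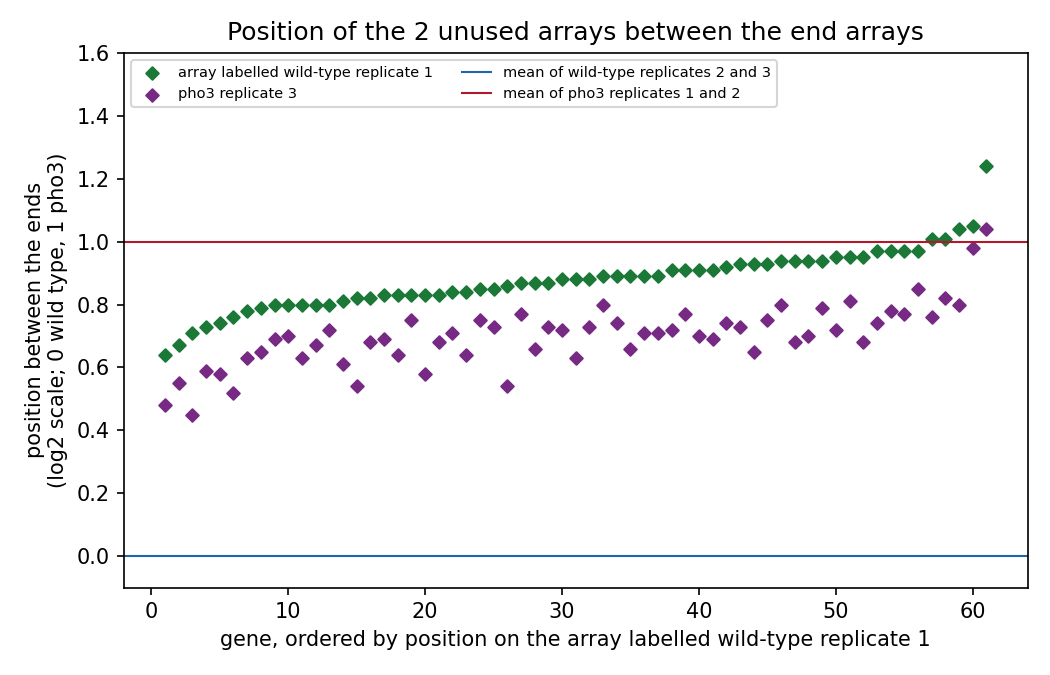
Position of each unused array between the mean log2 signals of wild-type replicates 2 and 3 (0) and of pho3 replicates 1 and 2 (1), for the 61 genes ordered by the array labelled wild-type replicate 1. Green points, for that array, lie between 0.64 and 1.24, and purple points, for pho3 replicate 3, between 0.45 and 1.04.

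The size of the contrast between the ends is given only to describe the genes. The ratio that chose them, taken on the signals as deposited, ran from 4.05 to 38.0 with a median of 7.48. Just inside the limit of 4 were AT1G66880 at 4.05 and AT3G51440 at 4.09, and just outside it were AMY1 and AT1G19020 at 3.97 and AT1G72700 at 3.96. On the limit of 100, AT2G23680 entered with a lower pho3 signal of 100.2 and AT5G55420 with 102, while AT3G28510 stayed out with 98.4 and AT4G39830 with 95.5. For 30 of the 61, both wild-type end arrays read under the 40th percentile (41.9% of all probe sets with 1 gene did), and for another 10 one of them did. Folds for such genes are lower bounds taken against that percentile. Taken this way, the fold between the ends ran from 4 to 18 over the 61 genes with a median of 6.78. AT1G57630, with the ratio of 38.0, had a lower bound of 5.68. With 3 arrays per line as labelled, the median log2 difference between pho3 and wild type was 2.12 over the 61 genes. It was 3.13 without the array labelled wild-type replicate 1, 2.45 without pho3 replicate 3 and 3.50 without both. These differences all hold the 4 end arrays, so the choice largely sets their size. Over all probe sets with 1 gene the medians in the same order were -0.04, -0.07, -0.05 and -0.07, given only for scale. Signals below are given in the order of replicates 1, 2 and 3, so the first of each set of 3 wild-type values comes from the array labelled as wild-type replicate 1.

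**Figure D3:**
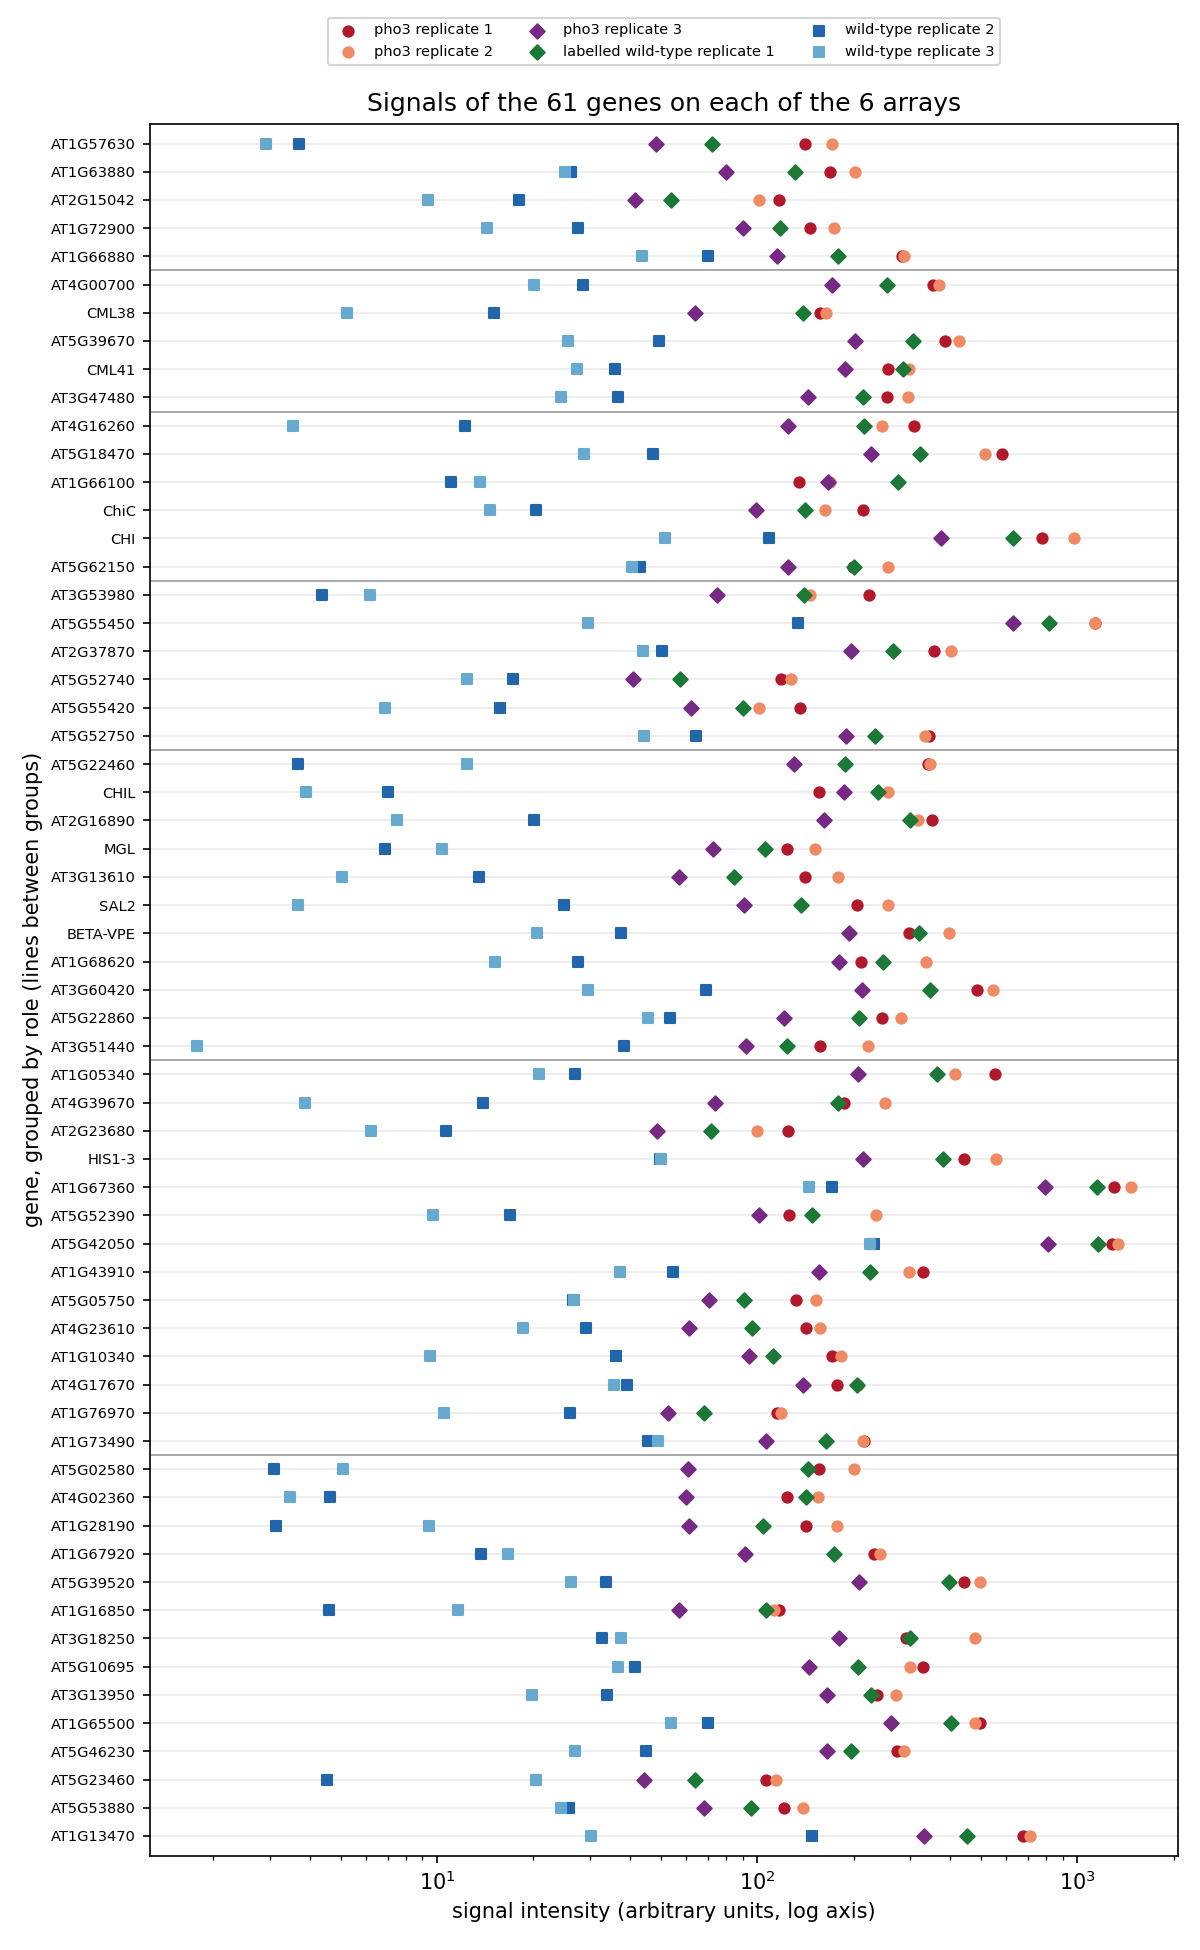
Signal of each of the 61 genes on the 6 arrays, in arbitrary units on a log axis, with genes grouped by role and ordered within a group by the ratio that chose them. Circles are pho3 replicates 1 and 2, squares wild-type replicates 2 and 3, and diamonds the 2 unused arrays. Each green diamond lies to the right of the purple one of the same gene.

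Roles are background knowledge of Arabidopsis loci, and 47 of the 61 genes were given one. Immune receptors and kinases made up 5 of them. Proteins of these families often sense microbial molecules or the damage they do. AT1G57630, a protein with a Toll-interleukin receptor domain, read 141, 171 and 48.3 on the pho3 arrays against 72.4, 3.70 and 2.93 on the wild-type arrays. Its wild-type end signals were under the 40th percentile, and the geometric mean of its pho3 ends was 5.68 times that level. AT1G63880, a nucleotide-binding leucine-rich repeat receptor of the same Toll-interleukin type, read 169, 202 and 79.9 on the pho3 arrays against 131, 26.2 and 25.1 on the wild-type arrays. AT1G72900, another protein with that domain, read 146, 173 and 90.2 on the pho3 arrays against 118, 27.5 and 14.3 on the wild-type arrays. In each of these 3 genes the array labelled wild-type replicate 1 read 1.31 to 1.64 times pho3 replicate 3. AT2G15042, a leucine-rich repeat protein, read 117, 102 and 41.7 on the pho3 arrays against 53.7, 18.1 and 9.34 on the wild-type arrays. AT1G66880, a membrane-bound protein kinase, read 284, 288 and 115 on the pho3 arrays against 179, 70.1 and 43.7 on the wild-type arrays. The 5 genes were at 31.1% to 56.6% of their pho3 ends on pho3 replicate 3 and at 46.7% to 73.9% on the array labelled wild-type replicate 1.

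Calcium-binding proteins, which translate a rise of cytosolic calcium into a response, were 5 of the genes. CML38, a calmodulin-like protein, read 158, 164 and 63.9 on the pho3 arrays against 139, 15.1 and 5.22 on the wild-type arrays. The gap between the unused arrays was 2.17-fold, among the 4 widest of the 61. CML41, a calmodulin-like protein known to act at plasmodesmata in immunity, read 257, 299 and 188 on the pho3 arrays against 285, 36 and 27.3 on the wild-type arrays. On the array labelled wild-type replicate 1 it lay between the 2 pho3 ends, and on pho3 replicate 3 below both. AT5G39670, with calcium-binding EF-hands, read 385, 426 and 202 on the pho3 arrays against 307, 49.5 and 25.6 on the wild-type arrays. AT3G47480, also an EF-hand protein, read 254, 296 and 144 on the pho3 arrays against 214, 36.7 and 24.5 on the wild-type arrays. AT4G00700, a membrane protein with lipid-binding domains that respond to calcium, read 355, 369.9 and 172 on the pho3 arrays against 255, 28.6 and 20.0 on the wild-type arrays. In these last 3 genes the unused arrays stood 1.48-fold to 1.52-fold apart, and one of the wild-type ends lay under the 40th percentile.

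Antimicrobial and carbohydrate-binding proteins were 6 of the genes. They include enzymes that cut the chitin or glucan of fungal walls. CHI (AT2G43570), a chitinase and not the flavonoid enzyme of that abbreviation, read 775, 976 and 374 on the pho3 arrays against 630.0, 109 and 51.4 on the wild-type arrays. ChiC, a class V chitinase, read 214, 162 and 99.2 on the pho3 arrays against 141, 20.4 and 14.7 on the wild-type arrays. AT4G16260, a glucanase-type glycosyl hydrolase, read 308, 245 and 125 on the pho3 arrays against 216, 12.2 and 3.55 on the wild-type arrays. The array labelled wild-type replicate 1 read below both pho3 ends in these 3 genes. AT1G66100, a thionin, which is a small peptide toxic to microbes, read 135, 169 and 167 on the pho3 arrays against 276, 11.1 and 13.6 on the wild-type arrays. It was the only one of the 61 that read above both pho3 ends on the array labelled wild-type replicate 1, at 182% of their mean, and on pho3 replicate 3 it lay within their range at 110% of it. THI2.1, another thionin from the jasmonate list, is no member and read 26.5, 38.6 and 28.7 on the pho3 arrays against 48.5, 21.3 and 17.4 on the wild-type arrays. Both wild-type ends of THI2.1 and its signal on pho3 replicate 1 were under the 40th percentile, so no fold is given. AT5G18470, a mannose-binding type lectin, read 580.0, 515 and 227 on the pho3 arrays against 322, 47.1 and 28.8 on the wild-type arrays. AT5G62150, a protein with a LysM domain of the kind that binds chitin or peptidoglycan, read 199.9, 257 and 125 on the pho3 arrays against 201, 43.1 and 40.6 on the wild-type arrays. On the array labelled wild-type replicate 1 the latter gene lay just inside the pho3 range.

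Lipid transfer proteins, small secreted proteins with a lipid-binding pocket, gave 4 members and heavy-metal-associated domain proteins 2. AT5G55450, a lipid transfer type protein, read 1137, 1133 and 631 on the pho3 arrays against 818, 134 and 29.6 on the wild-type arrays. Its wild-type ends differed from each other more than its pho3 ends did. AT3G53980, of the same superfamily, read 223, 146 and 75.1 on the pho3 arrays against 140.3, 4.36 and 6.15 on the wild-type arrays. AT2G37870, also of that superfamily, read 356, 403 and 196 on the pho3 arrays against 265, 50.3 and 43.9 on the wild-type arrays. AT5G55420, which RefSeq lists as a transcribed pseudogene, read 136, 102 and 62.0 on the pho3 arrays against 90.4, 15.7 and 6.85 on the wild-type arrays. AT5G55420 and AT5G55450 lie near each other on chromosome 5, with 2 genes between them in the RefSeq order. The heavy-metal domain genes AT5G52740 and AT5G52750 are direct neighbours on that chromosome. AT5G52740 read 118, 128 and 40.9 on the pho3 arrays against 57.3, 17.2 and 12.4 on the wild-type arrays. AT5G52750 read 344, 335 and 190.1 on the pho3 arrays against 233, 64.6 and 44.5 on the wild-type arrays. Their next neighbour, AT5G52760, passed the same signal limits and was left out by name, so all 3 adjacent genes did. Probe sets of such related genes may share transcripts, although none of the 61 had a probe set marked as matching several transcripts.

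Enzymes and enzyme-like proteins were 11 of the genes, 4 of them from families of specialised metabolism. CHIL, the chalcone isomerase-like protein that assists flavonoid synthesis, read 157, 256 and 186 on the pho3 arrays against 238, 7.03 and 3.89 on the wild-type arrays. CHIL and the thionin AT1G66100 were the only 2 of the 61 that lay within the pho3 end range on pho3 replicate 3. AT3G13610, listed with the synonym F6'H1, hydroxylates feruloyl-CoA on the way to scopoletin and related coumarins, and read 142, 179 and 57.0 on the pho3 arrays against 84.4, 13.5 and 5.06 on the wild-type arrays. AT2G16890, a UDP-glycosyltransferase, read 352, 317 and 161 on the pho3 arrays against 301, 20.1 and 7.48 on the wild-type arrays. It differed 1.87-fold between the unused arrays, against 1.28-fold for CHIL. AT3G51440, a strictosidine synthase-like protein, read 157, 222 and 92.0 on the pho3 arrays against 124, 38.3 and 1.78 on the wild-type arrays. The wild-type ends of AT3G51440 lay far apart, and its ratio of 4.09 was next to the smallest of the set.

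Other enzymes handle proteins, sulphur amino acids or phosphate esters. BETA-VPE, a vacuolar processing enzyme known for maturing seed storage proteins, read 298, 397 and 194 on the pho3 arrays against 319.9, 37.6 and 20.6 on the wild-type arrays. On the array labelled wild-type replicate 1 it lay within the pho3 range. AT5G22860, a serine carboxypeptidase of the lysosomal type, read 245, 281 and 121 on the pho3 arrays against 208, 53.4 and 45.5 on the wild-type arrays. MGL, methionine gamma-lyase, which breaks down methionine, read 124, 152 and 72.6 on the pho3 arrays against 106, 6.88 and 10.4 on the wild-type arrays. SAL2, a relative of the phosphatase SAL1 that acts on inositol phosphates and phosphoadenosine phosphate, read 205, 256 and 90.7 on the pho3 arrays against 137, 25 and 3.67 on the wild-type arrays. For MGL and SAL2 both wild-type ends lay under the 40th percentile. The geometric means of their pho3 ends were 5.03 and 8.40 times that level. AT3G60420, of the phosphoglycerate mutase family, read 485, 545 and 213 on the pho3 arrays against 348, 69.4 and 29.6 on the wild-type arrays. AT5G22460, an alpha/beta hydrolase, read 342, 348 and 131 on the pho3 arrays against 188, 3.67 and 12.4 on the wild-type arrays. The geometric mean of its pho3 ends was 12.6 times the 40th percentile of the wild-type ends. AT1G68620, also an alpha/beta hydrolase, read 212, 338 and 179.7 on the pho3 arrays against 248, 27.6 and 15.2 on the wild-type arrays. In AT1G68620 the pho3 ends enclosed the array labelled wild-type replicate 1, and in AT5G22460 it read 54.5% of their mean and below both.

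Among 14 genes of stress, membrane and other known families, several act in lipid handling or water stress. AT1G67360, a protein that coats lipid droplets, read 1304, 1470 and 792 on the pho3 arrays against 1153, 171 and 146 on the wild-type arrays. AT4G39670, of the glycolipid transfer protein family, read 187, 250.0 and 73.7 on the pho3 arrays against 179, 13.9 and 3.88 on the wild-type arrays. Its 2.43-fold gap between the unused arrays was the widest of the 61 genes. HIS1-3, a linker histone known to respond to drought and abscisic acid, read 442, 556 and 214 on the pho3 arrays against 379.6, 49.9 and 50.0 on the wild-type arrays. AT2G23680, of a cold acclimation membrane protein family, read 125, 100.2 and 48.7 on the pho3 arrays against 71.7, 10.7 and 6.20 on the wild-type arrays. AT1G05340, a small cysteine-rich membrane protein linked to stress, read 553, 414 and 206 on the pho3 arrays against 363, 27.1 and 20.9 on the wild-type arrays. The geometric mean of the pho3 ends was 17.5 times the 40th percentile of the wild-type ends for AT1G05340, and 4.1 times for AT2G23680. AT5G52390 belongs to the PAR1 family, named from tobacco transcripts that respond to photoassimilate, and read 126, 235 and 101 on the pho3 arrays against 148, 16.9 and 9.68 on the wild-type arrays. On the array labelled wild-type replicate 1, AT5G52390 read between the pho3 ends.

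AT5G42050, with a development and cell death domain, read 1285, 1337 and 813 on the pho3 arrays against 1157, 231 and 225 on the wild-type arrays. Its wild-type ends were close together and well above the 40th percentile. AT1G43910, an AAA-type ATPase, read 329, 299 and 156 on the pho3 arrays against 225, 54.6 and 37.3 on the wild-type arrays. AT1G10340, an ankyrin repeat protein, read 171, 183 and 94.0 on the pho3 arrays against 112, 36.2 and 9.49 on the wild-type arrays. The unused arrays were closest together in AT1G10340 and in AT5G46230, a gene given no role here, at 1.19-fold in both. AT4G23610, of the hydroxyproline-rich LEA glycoprotein family, read 142, 157 and 61.1 on the pho3 arrays against 96.2, 29.2 and 18.6 on the wild-type arrays. AT5G05750, a DnaJ co-chaperone, read 132, 153 and 70.5 on the pho3 arrays against 91.3, 26.5 and 26.8 on the wild-type arrays. AT4G17670, an FLZ-type zinc finger protein, read 177, 207 and 139 on the pho3 arrays against 205, 39.3 and 35.6 on the wild-type arrays. In AT4G17670 the array labelled wild-type replicate 1 lay just under the higher pho3 end. AT1G73490, an RNA-binding protein, read 216, 213 and 107 on the pho3 arrays against 164, 45.6 and 49.0 on the wild-type arrays. AT1G76970, with a VHS domain of the kind that sorts ubiquitinated membrane cargo, read 115, 119 and 52.7 on the pho3 arrays against 68.3, 25.9 and 10.5 on the wild-type arrays. It is separated by 1 gene on chromosome 1 from AT1G76960, which passed the same limits and was left out by name.

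The other 14 genes were given no role. On the array labelled wild-type replicate 1 they read between 57.9% and 102% of their pho3 ends, and on pho3 replicate 3 between 34.4% and 65.0%. AT5G02580 read 156, 201 and 61 on the pho3 arrays against 144, 3.09 and 5.09 on the wild-type arrays. AT4G02360 read 124, 154 and 60.0 on the pho3 arrays against 142, 4.63 and 3.46 on the wild-type arrays. These genes shared with AT4G39670 and CML38 a gap of at least 2-fold between the unused arrays, at 2.37-fold and 2.36-fold. AT1G28190 read 142, 177 and 61.4 on the pho3 arrays against 104, 3.15 and 9.43 on the wild-type arrays. AT5G39520 read 442, 497 and 207 on the pho3 arrays against 396, 33.8 and 26.1 on the wild-type arrays. AT1G13470 read 677, 709.9 and 332 on the pho3 arrays against 453, 149 and 30.4 on the wild-type arrays. In these 3 genes both unused arrays lay below the pho3 ends, and in AT1G13470 the wild-type ends lay far apart. AT3G18250 read 292, 478 and 179.7 on the pho3 arrays against 301, 32.7 and 37.6 on the wild-type arrays. AT1G65500 read 496, 480.4 and 263 on the pho3 arrays against 403, 70.4 and 53.9 on the wild-type arrays. In AT3G18250 and AT4G02360 the array labelled wild-type replicate 1 lay within the pho3 range, and in AT1G65500 below it. AT1G67920, AT1G16850, AT5G10695, AT3G13950, AT5G46230, AT5G23460 and AT5G53880 read 107 to 330 on pho3 replicate 1, 44.4 to 165 on pho3 replicate 3 and 64.0 to 227 on the array labelled wild-type replicate 1. On wild-type replicate 2 those 7 genes read between 4.54 and 45.0.

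**Figure D4:**
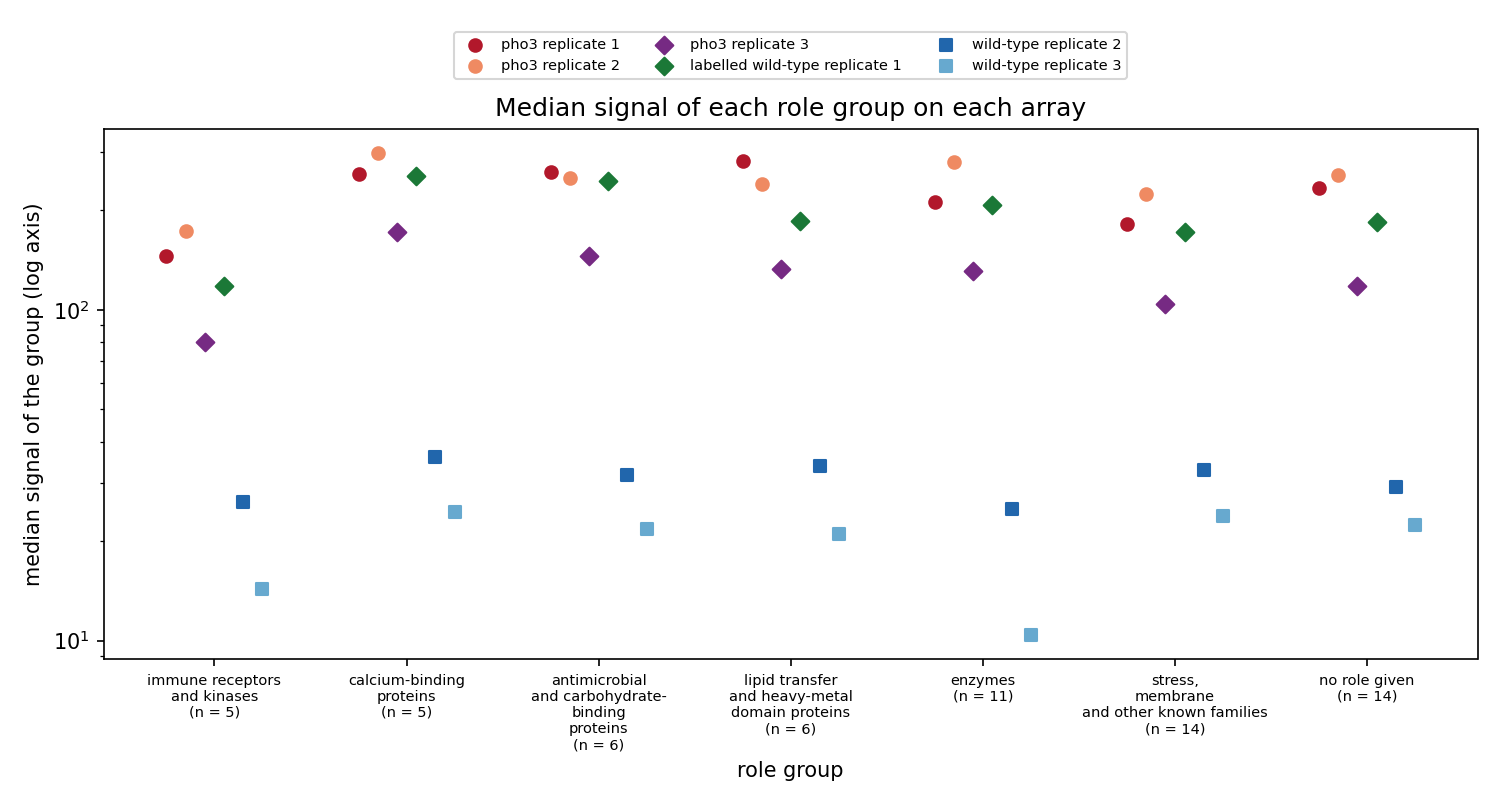
Median signal of each role group on each of the 6 arrays, in arbitrary units on a log axis, with the number of genes in a group under its name. In all 7 groups the green diamond (array labelled wild-type replicate 1) lies above the purple diamond (pho3 replicate 3), and both lie above the blue squares (wild-type replicates 2 and 3).

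The role groups were alike in the order of their arrays. The median ratio of the array labelled wild-type replicate 1 to pho3 replicate 3 lay between 1.38, in the lipid transfer and heavy-metal group, and 1.63, in the antimicrobial group. The groups were not tested against each other. The members lay on all 5 chromosomes, 20 each on chromosomes 1 and 5, 6 on chromosome 2, 8 on chromosome 3 and 7 on chromosome 4.

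Lists of defence, hormone, senescence and sugar genes held 0 of the 61 genes, and few of their genes had a named probe set. Of 38 salicylic acid and systemic resistance genes listed, 4 had a named probe set and 0 were members. In limma's test over all 6 arrays 0 of them passed, as did 0 of all 13983 probe sets. SAG101, a lipase-like partner of the immune regulator EDS1, read 81.8, 82.8 and 45.3 on the pho3 arrays against 55.6, 33.1 and 38.8 on the wild-type arrays. GRX480, a glutaredoxin induced by salicylic acid, read 191, 230.4 and 126 on the pho3 arrays against 159.7, 62.5 and 24.6 on the wild-type arrays. In both genes the pho3 ends were above the wild-type ends, by ratios of 2.11 and 3.05 that fell short of the limit of 4. With UGT76B1, whose wild-type ends were both under the 40th percentile, this held for 3 of the 4 named genes. Over all probe sets with 1 gene the upper quartile of this ratio was 1.04. AT5G52810, listed as SARD4 of pipecolic acid synthesis, read 147, 174 and 148 on the pho3 arrays against 149, 159 and 96.1 on the wild-type arrays, with ends that overlapped. Of the 8 genes for camalexin and glutathione transferases only AT1G26380 was named, with 24.5, 26.7 and 31.8 on the pho3 arrays against 32.5, 1.90 and 6.66 on the wild-type arrays, with both wild-type ends and pho3 replicate 1 under the 40th percentile, so no fold is given. The jasmonate gene PDF1.2, a defensin, read 185, 70.3 and 228 on the pho3 arrays against 128, 97.9 and 246 on the wild-type arrays, with overlapping ends. For leaf senescence, sugar uptake and response, flavonoid synthesis and phosphate starvation, 0 of the 48 genes listed had a named probe set. The lists do not cover all genes of these pathways, so this count says nothing about the pathways. The anthocyanin genes DFR and UF3GT and the sugar transporters SWEET4 and SWEET13 passed both signal limits and were left out by name. CHIL, which assists flavonoid synthesis, is a member.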

How the data were processed

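Leaf RNA from 3 pho3 and 3 wild-type samples was measured on Affymetrix ATH1 arrays. The authors deposited for every array 1 linear intensity per probe set, made with MAS5 per the submitters' processing notes; version, build and detection calls are not given in the sources used here. Such signals are robust averages over probe pairs, and dim ones carry the largest relative error. With 2% trimmed from each end, every array had a mean of 100.0. The number of arrays limits the precision.

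Samples were grouped by title. The 61 genes, the gene lists and the roles were chosen with earlier results of these data known. The reference tables hold names but no descriptions, and keyword classes on those names placed only 6 of the 61 genes, so roles were assigned by hand after the values had been seen. Genes were to be named by role, by their ratio between the end arrays, by their ratio between the unused arrays, by their level or as neighbours of a limit; beyond that rule, others are named in their groups. Names came from the platform annotation updated through RefSeq (TAIR10.1), where 13436 of the 13513 probe sets with 1 gene matched. No sequences are given, because none were used here.

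The test on log2 signals, with no pseudocount, was that of limma 3.58.1 under R 4.3.3 (eBayes with trend, two-sided, Benjamini-Hochberg adjustment over the 13983 probe sets that reached the 40th percentile on 3 or more arrays). Since separate plants are not stated, p-values reflect only the spread among these arrays, possibly a technical one. Folds are ratios of geometric means. The scripts were tested on simulated data. Other steps used matplotlib 3.10.9, pandas 2.3.3 and numpy 2.4.6 under python 3.11.15. Alternatives tried were median centring, quantile normalization, no filter, a pseudocount of 16, eBayes without trend, array weights, a replicate block, leaving out each array, and other limits for the choice of genes. Leaving out both unused arrays, leaving out 1 end array from the choice and raising dim signals to the 40th percentile were chosen after seeing the data.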

Additional observations from a re-analysis of the deposited data

How the results depend on the processing

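All genes in the set read higher on the array labelled wild-type replicate 1 than on pho3 replicate 3 under quantile normalization, median centring and 2 stricter limits, and the median log2 difference between these arrays stayed between -0.60 and -0.52. The number of genes depended on the limits: 61 as chosen, 32 with a minimum signal of 200, 92 with a ratio of 3, and 69 to 88 with 1 end array left out. With the minimum of 200, all 32 of the 32 genes reached 100 on the unused wild-type array, compared with 50 of the 61. Over all probe sets, limma called 0 in each direction under the normalizations, pseudocount, filter and prior tried. Array weights gave 2237 higher and 2026 lower, and leaving out both unused arrays gave 2547 and 2305. Leaving out each array in turn gave 0 to 644 higher and 0 to 117 lower, above 0 only without wild-type replicate 1; the cause was not tested. With the replicate number as a block the counts were 0 and 0. Whether the numbers pair the samples could not be settled: correlations of deviations between same-numbered arrays were 0.39, -0.27 and 0.43 for replicates 1, 2 and 3. Dim signals on both wild-type end arrays, for 30 of the 61 genes, or on one of them, for another 10, limit a fold to a lower bound.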
